A study of Mus musculus with 24 samples.

Results

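The genes of GABA signaling measured here comprised 26 genes on 35 probes, out of 19751 genes and 39429 probes on the arrays. They were taken from a list of receptor subunits, enzymes, transporters and anchoring proteins, and a probe was included when its identifier on the array mapped to the symbol or an alias. Of these genes, 19 had 1 probe and 7 had several, and the probe with the highest mean over all 24 arrays stood for its gene (the brightest probe below). For Gabbr2 the brightest probe differed between the generations. RNA came from the hippocampus of mice labelled as 4 weeks old (the study's text calls them adult), and 6 arrays, each a pool of 4 mice, were run in each of 4 groups. CD F1 and MD F1 were offspring of C57BL/6J fathers kept for 6 weeks before mating on the control diet or on a methyl donor-rich diet (3MS ZM), and of 129S6/SvEv mothers. Per kg of chow the latter diet contained additional zinc (150 mg), vitamin B12 (1.5 mg), folic acid (15 mg), betaine and choline (15 g each) and L-methionine (7.5 g). CD F2 and MD F2 came from F1 males of either paternal diet mated with CD F1 females, and all F1 and F2 animals themselves ate control chow. The labels name the strain of all groups as congenic C57BL/6J x 129S6/SvEv hybrids. An F1 animal of this cross carries a chromosome set of each parental strain, whereas F2 animals segregate for the alleles of both. Since nothing in the sources ties pools to litters or fathers, the p-values measure the spread between these pools.

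GABA is the main inhibitory transmitter of the adult brain. It is made from glutamate by glutamate decarboxylase, loaded into vesicles by a vesicular transporter and, after release, taken up by plasma membrane transporters and broken down by a transaminase. Ionotropic GABAA receptors are chloride channels built from different subunits, held at inhibitory synapses by the scaffold protein gephyrin, or placed outside synapses, while metabotropic GABAB receptors are dimers that act through G proteins.

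The median processed intensity per array ranged from 148 to 318, and 27383 to 37013 spots per array were well above background. MD F1 replicate 6 had the lowest mean correlation with the other F1 arrays (0.985), and in F2 the lowest were those of replicate 6 of CD F2 (0.977) and replicate 3 of MD F2 (0.974), with 28000 and 27383 spots well above background. All 12 markers of hippocampal principal neurons were well above background on the 24 arrays. The sex of the pooled mice was not labelled. The mean log2 signal of 4 Y-linked genes minus that of Xist was between -2.30 and -1.90 in CD F1 and between -2.15 and 0.16 in MD F1, whereas in F2 it was between -7.66 and -7.43 on 2 CD F2 arrays and 1 MD F2 array and between 5.23 and 7.26 on all others. Ependymal markers had a mean log2 signal of 9.22 to 9.52 in CD F1 and 9.65 to 10.02 in MD F1, and of 8.83 to 9.77 in CD F2 and 8.63 to 9.28 in MD F2. Choroid plexus markers ranged over 7.31 to 11.63 in F1 and 6.88 to 12.46 in F2. Generations shared no slide and no scan day. Whether each F2 array held RNA of 4 mice, as described, was not tested; if it did not, the F2 p-values measure the spread between other units than pools.

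Most GABA genes were well measured in hippocampus. The brightest probes of 22 of the 26 genes were well above background on all 24 arrays. They included Gad1, Gad2, Abat and the 3 transporters, the alpha subunits Gabra2 to Gabra5, Gabrb1, Gabrb2, Gabrg1, Gabrg3, Gabrd, Gabrp, Gabrr1, Gabrr2, both metabotropic subunits, Gphn and Nlgn2. Gabrq, the theta subunit, stayed below that level throughout. Gabre, the epsilon subunit, was measured on 2 CD F1 arrays and none of the other groups. Gabra6, an alpha subunit best known from cerebellar granule cells, was measured on 1 CD F1, 1 CD F2 and 2 MD F2 arrays. On CD F1 replicate 5 its log2 signal was 5.94, against 1.16 to 1.82 on the other CD F1 arrays. Gabrr3, a rho subunit, was measured on all F1 arrays but on 1 array each of CD F2 and MD F2. No fold change is given where a group had no array well above background.

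**Figure D1:**
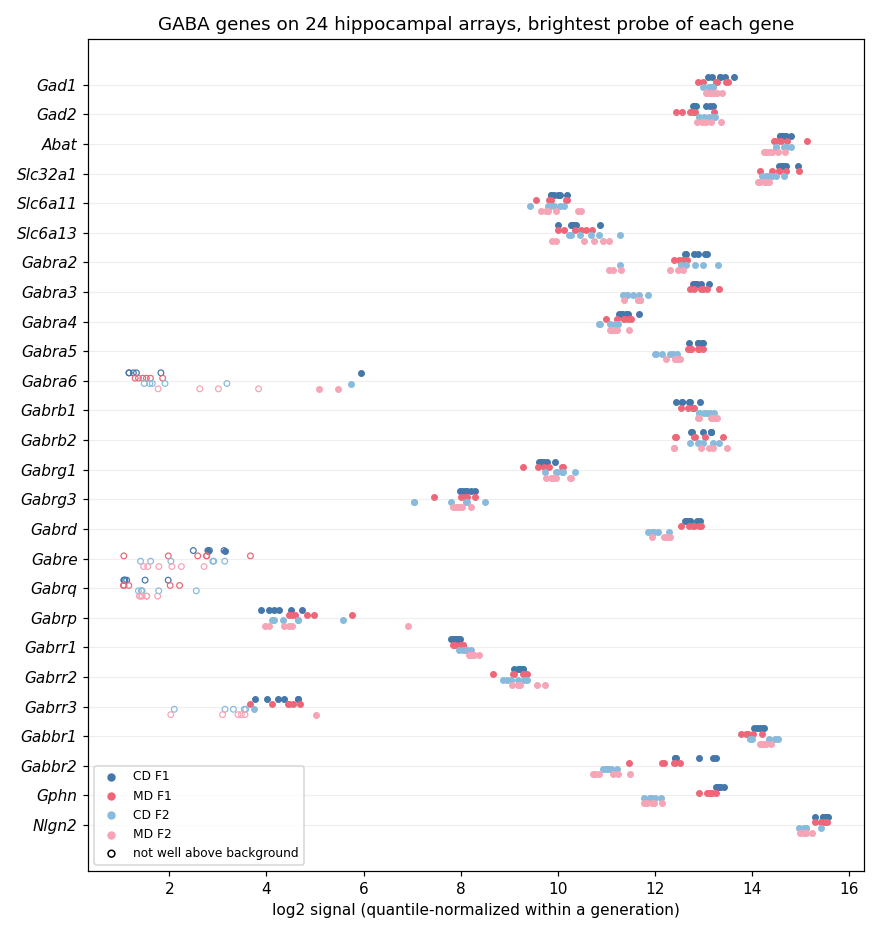
The x axis gives the log2 signal, normalized within a generation, and the y axis lists the 26 genes, each by its brightest probe; every point is 1 array, in the color of its group, and open points were not well above background. Gabrq has open points only, and Gabra2 spreads widely in F2; positions of different genes cannot be compared, because probes differ in brightness.

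No GABA gene differed between diets at the threshold of the study. In limma, 0 of the 26 genes passed an FDR under 0.1 in MD F1 against CD F1, where 0.033% of all 39429 probes did, and 4 had an unadjusted p under 0.05, where 13.4% of the brightest probes of all genes and 14.4% of all probes did. These 4 were Gabra2, Gphn and Gabbr2, with lower signal in MD F1 (3 of 26, against 5.54% of all genes), and Gabrp, with higher signal (1 of 26, against 7.82%). Gabra2, Gphn and Gabrp each had 1 probe, so their values could not be compared between probes. Gabbr2 counts here through the probe that was brightest over both generations; its probe with the highest signal in F1 gave 0.29 (limma, FDR 0.614), and with that probe 3 genes would have an unadjusted p under 0.05, 2 of them lower. Of the 26 log2 fold changes, 16 were below 0 and 10 above, with a median of -0.08 against 0.02 over the brightest probes of all genes. The median of the 26 was -0.04 without MD F1 replicate 5 and -0.05 without MD F1 replicate 6, and -0.12 at its lowest, without MD F1 replicate 4. In MD F2 against CD F2, 0 of the 26 passed by limma, where 0% of all probes did, and 2 (Abat and Gabrr1) had an unadjusted p under 0.05, against 5.65% of all genes and 5.6% of all probes. Abat was lower in MD F2, as 2.81% of all genes were at that level, and Gabrr1 higher, as 2.84% were. The F2 fold changes were below 0 for 13 genes and above 0 for 13, with a median of 0.02 against 0.01 over all genes. That median was 0.01 without CD F2 replicate 3 or MD F2 replicate 3. It was 0.04 without CD F2 replicate 5, CD F2 replicate 6, MD F2 replicate 1 or MD F2 replicate 4. In F1 and in F2 the values of CD and MD overlapped for each of the 26, while they did not overlap for 1.67% of all genes in F1 and 0.38% in F2. In RNA of whole hippocampus, fewer cells of a type and less RNA per cell cannot be told apart.

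**Figure D2:**
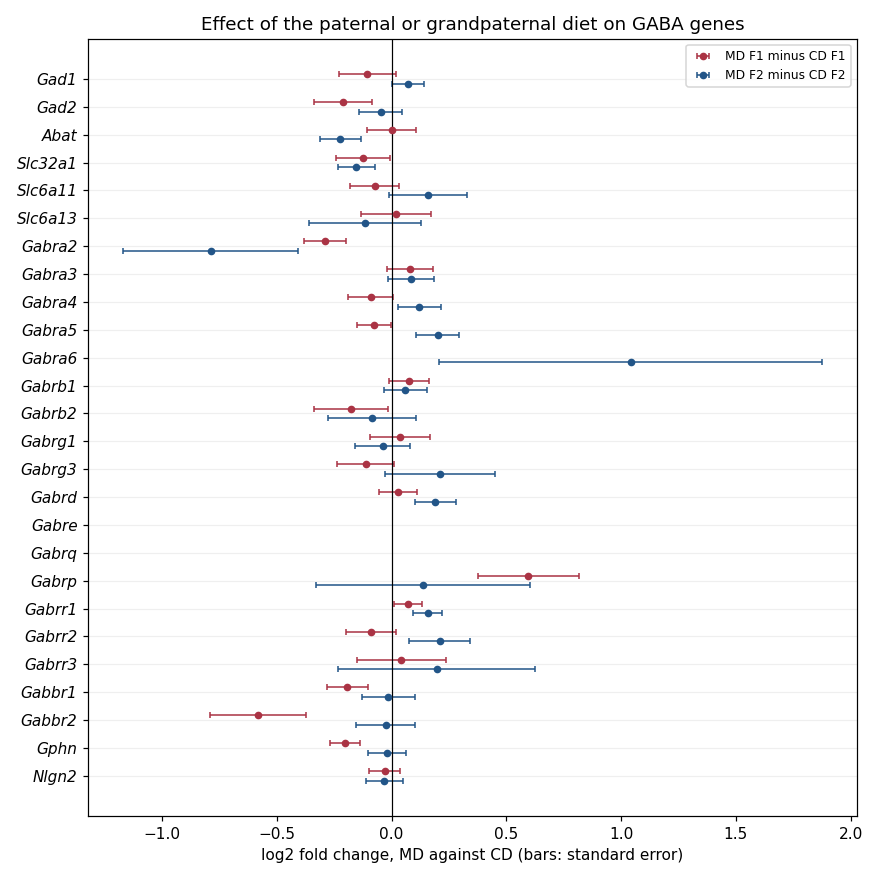
The x axis gives the log2 fold change of MD against CD and the y axis lists the 26 genes; points are limma estimates from 6 arrays per group (5 for Gabbr1 in CD F1, MD F1 and CD F2; red, F1; blue, F2) and bars are standard errors. Points are left out for Gabre and Gabrq in both generations and for Gabra6 in F1, where a group had no array well above background. In F2 the bar of Gabra2 (SE 0.381) is wider than those of its neighbors. Those of Gabra6 (SE 0.833), Gabrp (0.466) and Gabrr3 (0.430) are wider still. The F2 points of Gabra6 (1.04) and Gabrr3 (0.20) lie at the limit of detection. No gene passed an FDR under 0.1.

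Promoter sequences of the 4 genes with the smallest F1 p are shown because the diet supplies methyl groups and CpG dinucleotides are where mouse DNA is mostly methylated; DNA methylation was not measured on these arrays. The windows cover 250 bases before to 50 after the annotated start in RefSeq (build GRCm38.p6), 5′ to 3′ on the strand of the gene, and capitals mark each CG. They lie at chr5:71095800-71096099 (Gabra2, minus strand), chr12:78226405-78226704 (Gphn, plus strand), chr4:46991665-46991964 (Gabbr2, minus strand) and chr11:33578908-33579207 (Gabrp, minus strand).
Gabra2: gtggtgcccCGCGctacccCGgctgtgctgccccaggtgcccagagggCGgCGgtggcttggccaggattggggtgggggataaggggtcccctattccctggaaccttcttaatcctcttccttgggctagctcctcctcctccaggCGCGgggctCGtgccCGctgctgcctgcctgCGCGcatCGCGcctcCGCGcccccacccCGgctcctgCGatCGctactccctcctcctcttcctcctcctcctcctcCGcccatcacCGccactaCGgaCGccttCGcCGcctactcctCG
Gphn: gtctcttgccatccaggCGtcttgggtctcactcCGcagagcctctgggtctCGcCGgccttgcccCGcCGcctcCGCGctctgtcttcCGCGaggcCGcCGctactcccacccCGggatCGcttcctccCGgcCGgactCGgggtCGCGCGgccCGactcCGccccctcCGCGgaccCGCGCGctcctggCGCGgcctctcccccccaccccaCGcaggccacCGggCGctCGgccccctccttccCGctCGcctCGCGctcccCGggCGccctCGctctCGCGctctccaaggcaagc
Gabbr2: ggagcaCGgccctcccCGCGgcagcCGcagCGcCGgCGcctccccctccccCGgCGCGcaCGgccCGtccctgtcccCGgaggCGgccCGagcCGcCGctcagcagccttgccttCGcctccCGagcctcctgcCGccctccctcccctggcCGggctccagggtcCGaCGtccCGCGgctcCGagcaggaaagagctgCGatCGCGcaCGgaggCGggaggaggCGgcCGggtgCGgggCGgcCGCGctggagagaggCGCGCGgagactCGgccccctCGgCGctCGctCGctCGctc
Gabrp: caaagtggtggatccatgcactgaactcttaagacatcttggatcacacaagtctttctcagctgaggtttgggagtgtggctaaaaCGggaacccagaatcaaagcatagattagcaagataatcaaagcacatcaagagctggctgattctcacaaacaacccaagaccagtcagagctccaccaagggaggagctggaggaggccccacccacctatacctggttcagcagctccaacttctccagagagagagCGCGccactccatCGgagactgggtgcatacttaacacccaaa
The windows of Gabra2, Gphn and Gabbr2 held 25, 42 and 46 CG, and the window of Gabrp held 4. Among all 32851 promoter windows the median was 7 and 94.6% held at least 1 CG, which reads the same on both strands. Of the GABA genes, 24 matched an entry, with 30 windows and a median of 11.5 CG. At least 10 CG were present in 56.7% of these windows and in 43.5% of all. The window of Gabbr2 stood at percentile 98.6 of all windows, and both windows of Gabra3 had 0.

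Glutamate decarboxylase is encoded by Gad1 and Gad2, which together mark GABAergic neurons. Gad1 had log2 signals of 13.10 to 13.63 (median 13.35) in the CD F1 pools and 12.90 to 13.52 (median 13.27) in the MD F1 pools. In F2 it ranged from 12.99 to 13.21 (median 13.14) with CD and from 13.05 to 13.38 (median 13.20) with MD. The groups overlapped in both generations, and the log2 fold change was -0.10 (95% confidence interval -0.37 to 0.16; limma, FDR 0.701) in F1 and 0.07 (-0.08 to 0.23; FDR 0.936) in F2. Gad2 spanned 12.80 to 13.20 (median 12.95) in the CD F1 pools and 12.44 to 13.22 (median 12.76) in the MD F1 pools, where the lowest and the highest F1 values were both MD. Its values were 12.92 to 13.24 (median 13.16) in CD F2 and 12.87 to 13.36 (median 13.03) in MD F2. The log2 fold change of Gad2 was -0.21 (-0.49 to 0.06; limma, FDR 0.453) in F1 and -0.05 (-0.25 to 0.16; FDR 0.982) in F2. The list of 20 interneuron markers had a mean log2 signal of 10.06 to 10.20 in CD F1 and 9.80 to 10.09 in MD F1. Of the 20, 15 were lower in MD F1, against 8938 of all 19751 genes. Their median log2 fold change in F1 was -0.12. It was -0.12 for principal neuron, -0.10 for astrocyte and -0.11 for oligodendrocyte markers. The part of these marker differences in the Gad1 and Gad2 values was not tested.

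**Figure D3:**
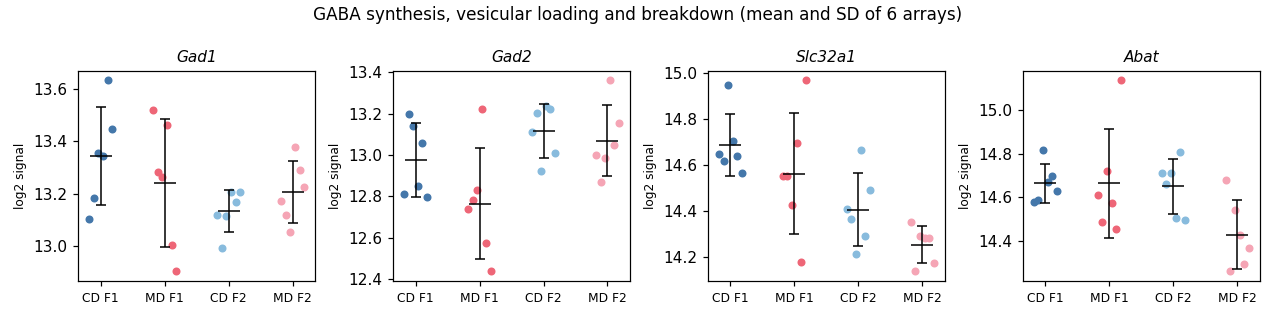
Panels show Gad1, Gad2, Slc32a1 and Abat, with the group on the x axis and the log2 signal on the y axis; each point is 1 array, and the dash and bars are the mean and SD of 6 arrays. CD and MD overlap in every panel, and Abat in MD F2 lies at 14.26 to 14.68 against 14.50 to 14.81 in CD F2.

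Abat encodes GABA transaminase, the mitochondrial enzyme that breaks GABA down. It had the lowest p of the synthesis and breakdown genes in F2. Its signal was 14.50 to 14.81 (median 14.69) in CD F2 and 14.26 to 14.68 (median 14.40) in MD F2, so that the MD pools lay lower but overlapped. Its log2 fold change was -0.22 (SE 0.0892, n = 6 per group; limma, unadjusted p = 0.0285, FDR 0.890; exact permutation p = 0.0325). It was below 0 on each of the 3 F2 slides (-0.41 to -0.02), and with scaling to the 75th percentile it was -0.16 with an unadjusted p of 0.130 in limma. Over 14 alternatives, among them the sex measure as a covariate, the F2 value lay between -0.28 and -0.16 (limma, lowest FDR 0.490). In F1, Abat ranged from 14.58 to 14.82 (median 14.65) with CD and from 14.45 to 15.14 (median 14.59) with MD, with a log2 fold change of 0.00 (-0.23 to 0.24; limma, FDR 0.999).

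Slc32a1 encodes the vesicular GABA transporter. It spanned 14.56 to 14.95 (median 14.64) in the CD F1 pools and 14.18 to 14.97 (median 14.55) in the MD F1 pools. In F2 the values were 14.21 to 14.67 (median 14.39) with CD and 14.14 to 14.35 (median 14.28) with MD. All groups of a generation overlapped, and the log2 fold changes were -0.12 (-0.38 to 0.13; limma, FDR 0.636) and -0.15 (-0.33 to 0.03; FDR 0.912). A dimmer probe of Slc32a1 gave 0.33 in F1 and -0.40 in F2 (limma, FDR 0.445 and 0.922), so the probes differed in sign in F1. For the plasma membrane transporters the log2 fold changes in F1 and F2 were -0.07 and 0.16 (Slc6a11, a transporter of astrocytes; limma, FDR 0.766 and 0.940) and 0.02 and -0.11 (Slc6a13, which is known from the meninges; FDR 0.963 and 0.984). Slc6a13 had a residual SD of 0.466 in F2, larger than 94.0% of the genes measured on all arrays.

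Alpha subunits line the GABA binding site and set where a receptor goes. Gabra2 is typical of synaptic receptors, and among the 26 genes it had the smallest p in F1. It was measured by 1 probe. It spanned 12.62 to 13.07 (median 12.86) in the CD F1 pools and 12.39 to 12.67 (median 12.59) in the MD F1 pools, a narrow overlap. The difference on the log2 scale was -0.29 (SE 0.0901; limma, unadjusted p = 0.00742, FDR 0.230; exact permutation p = 0.00866), with values of -0.38 to -0.16 within the 3 F1 slides. With the sex measure as a covariate it was -0.21 (limma, unadjusted p = 0.0629, FDR 0.530), and with all 24 arrays in a single fit the unadjusted p was 0.360 (limma, FDR 0.849). That fit shares 1 residual variance across both generations, and Gabra2 spread far more in F2 (below). Its p therefore does not measure the F1 spread alone.

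In F2 the signal of Gabra2 fell into separate ranges. It was 11.29 to 13.31 (median 12.74) in CD F2 and 11.06 to 12.59 (median 11.81) in MD F2. Low values between 11.06 and 11.30 came from CD F2 replicate 6 and from MD F2 replicates 1, 3 and 6, and the other 8 arrays lay between 12.33 and 13.31. On the log2 scale the change was -0.79 (SE 0.381; limma, unadjusted p = 0.0619, FDR 0.895; exact permutation p = 0.0649). Over 14 alternatives, among them the sex measure as a covariate, the change lay between -0.89 and -0.76 (limma, lowest FDR 0.421). It was -1.52, -0.70 and -0.15 within the 3 F2 slides, and the unadjusted p was 0.0329 (limma, FDR 0.808) with slide as a block and 0.0117 (FDR 0.421) with all 24 arrays in a single fit. Without replicate 6 of CD F2 and replicate 3 of MD F2, which stood apart from the other arrays, the value was -0.89 (limma, unadjusted p = 0.0164, FDR 0.801). The residual SD of Gabra2 was 0.146 in F1 and 0.741 in F2, a ratio of 5.07 that exceeded those of 99.2% of the 13948 genes measured on all arrays, where the median ratio was 1.20. The single fit of all 24 arrays pools these variances. For Gabra2 it understates the F2 spread and overstates the F1 spread, so its p-values suit neither generation. Gabrg1, Gabra4 and Gabrb1 lie next to Gabra2 on chromosome 5 (GRCm38.p6; 1 other gene stands between Gabra2 and Gabra4), and their residual SDs in F2 were 0.210, 0.164 and 0.160. The 4 low arrays had sex measures of both signs (-7.43, 5.23, 5.37 and 6.60). What separates the ranges was not tested.

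**Figure D4:**
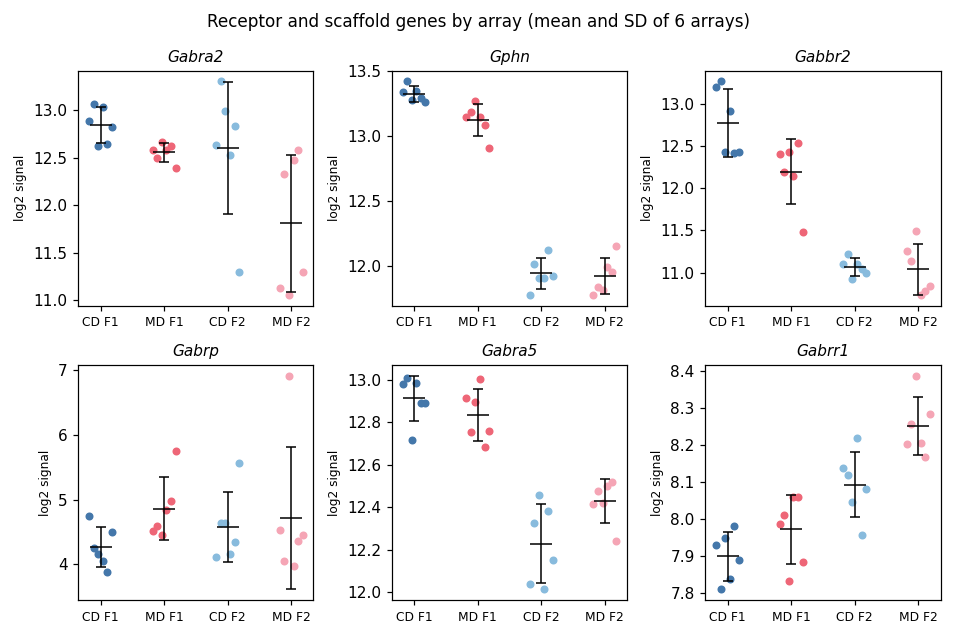
Panels show the brightest probes over all 24 arrays of Gabra2, Gphn, Gabbr2, Gabrp, Gabra5 and Gabrr1, with the group on the x axis and the log2 signal on the y axis; each point is 1 array, and the dash and bars are the mean and SD of 6 arrays. Gabra2 in F2 has 4 arrays at 11.06 to 11.30 apart from the rest, and 1 MD F2 array of Gabrp lies at 6.92.

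Gabra5 encodes a subunit of extrasynaptic receptors that is abundant in hippocampus. It spanned 12.72 to 13.01 (median 12.93) in the CD F1 pools and 12.68 to 13.00 (median 12.83) in the MD F1 pools. In F2 it was 12.01 to 12.46 (median 12.24) with CD and 12.24 to 12.52 (median 12.45) with MD. MD was thus slightly below CD in F1 and above it in F2, with overlap in both. The log2 fold changes were -0.08 (-0.24 to 0.08) and 0.20 (SE 0.0925; limma, unadjusted p = 0.0517, FDR 0.892), with the same sign on all 3 slides of each generation. Their difference, F1 minus F2, was -0.28 (SE 0.118; limma interaction, unadjusted p = 0.0258, FDR 0.527). Over 14 alternatives, among them the sex measure as a covariate, the F2 fold change of Gabra5 lay between 0.19 and 0.23 (limma, lowest FDR 0.464). The remaining alpha subunits gave log2 fold changes of 0.08 and 0.09 (Gabra3) and -0.09 and 0.12 (Gabra4) in F1 and F2 (limma, FDR from 0.671 to 0.951). A dimmer Gabra3 probe gave 0.39 in F1 and 0.12 in F2 (limma, FDR 0.481 and 0.969).

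Most GABAA receptors contain beta subunits. Of these, Gabrb1 had log2 fold changes of 0.08 in F1 and 0.06 in F2, and Gabrb2 of -0.18 and -0.09 (limma, FDR 0.620 or higher). Gabrg1 and Gabrg3, gamma subunits that accompany benzodiazepine binding, gave 0.04 and -0.11 in F1 and -0.04 and 0.21 in F2 (limma, FDR 0.682 or higher). A second, dimmer probe of Gabrg3 gave -0.38 in F1 and 0.05 in F2 (limma, FDR 0.457 and 0.981), and that of Gabrg1 -0.06 and -0.23 (FDR 0.876 and 0.916). Gabrd, the delta subunit of extrasynaptic receptors of dentate granule cells, was 0.03 in F1 (limma, FDR 0.884) and 0.19 in F2 (SE 0.0900, unadjusted p = 0.0553, FDR 0.892). None of these 5 genes had an unadjusted p under 0.05 in limma.

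Gabrp encodes the pi subunit, known mainly from tissues outside the brain. Its signal was low, at 3.88 to 4.74 (median 4.20) in CD F1 and 4.45 to 5.76 (median 4.71) in MD F1. In F2 it ranged from 4.12 to 5.57 (median 4.49) with CD and from 3.98 to 6.92 (median 4.41) with MD, the highest value being that of MD F2 replicate 3. In F1, 3 of the 6 MD values lay above the highest CD value and none below the lowest. In F2, 1 MD value lay above the CD range and 2 below it. The log2 fold change was 0.60 (SE 0.218; limma, unadjusted p = 0.0181, FDR 0.278; exact permutation p = 0.0195) in F1 and 0.14 (-0.88 to 1.15) in F2. In F1 it was 0.42 without MD F1 replicate 6 (limma, unadjusted p = 0.0220) and 0.30 with the sex measure as a covariate (unadjusted p = 0.193).

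The rho subunits form receptors best known from retina. Gabrr1 spanned 7.81 to 7.98 (median 7.91) in the CD F1 pools and 7.83 to 8.06 (median 8.0) in the MD F1 pools. In F2 it was 7.96 to 8.22 (median 8.10) with CD and 8.17 to 8.39 (median 8.23) with MD. Its arrays lay close together, with residual SDs of 0.081 in F1 and 0.083 in F2, and MD was the higher group in both, with overlap. Its log2 fold change was 0.07 (-0.06 to 0.20; limma, FDR 0.583) in F1 and 0.16 (SE 0.0642; limma, unadjusted p = 0.0311, FDR 0.890; exact permutation p = 0.00866) in F2. In F2 it was 0.10 with scaling to the 75th percentile (limma, unadjusted p = 0.177). Over 14 alternatives, among them the sex measure as a covariate, the F2 value lay between 0.06 and 0.16 (limma, lowest FDR 0.433). Gabrr2, which adjoins Gabrr1 on chromosome 4 (GRCm38.p6), had log2 fold changes of -0.09 and 0.21 (limma, FDR 0.718 and 0.918). Gabrr3 had 0.04 in F1 (limma, FDR 0.931), and its other probe was well above background on 0 of 24 arrays.

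Metabotropic receptors require Gabbr1, which binds GABA, and Gabbr2, which couples to the G protein. The probe of Gabbr2 with the highest mean over all 24 arrays spanned 12.41 to 13.26 (median 12.68) in the CD F1 pools and 11.48 to 12.53 (median 12.30) in the MD F1 pools. In F2 it was 10.93 to 11.22 (median 11.07) with CD and 10.74 to 11.49 (median 10.99) with MD. MD F1 lay mostly below CD F1, with MD F1 replicate 6 lowest, and the CD F2 values lay within the range of MD F2. The difference on the log2 scale was -0.58 (SE 0.210; limma, unadjusted p = 0.0172, FDR 0.274; exact permutation p = 0.0260) in F1 and -0.02 (-0.31 to 0.26; FDR 0.997) in F2, and their difference was -0.53 (SE 0.251; limma interaction, unadjusted p = 0.0449, FDR 0.595). In F1 it was -0.43 without MD F1 replicate 6, between -0.89 and -0.07 within the slides, and -0.23 with the sex measure as a covariate (limma, unadjusted p = 0.216).

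Probes of Gabbr2 disagreed. A second probe was the brightest of the 3 in F1, at 12.71 to 13.59 in CD F1 and 12.53 to 14.24 in MD F1, and gave the opposite sign there, with a log2 fold change of 0.29 (limma, FDR 0.614). The dimmest gave -0.29 (limma, unadjusted p = 0.0445, FDR 0.338), and the mean of the 3 probes gave -0.19 (unadjusted p = 0.294). A direction for Gabbr2 in F1 therefore depends on the probe. In F2 the second probe gave 0.14 and the dimmest 0.08 (limma, FDR 0.946 and 0.988). With all 24 arrays normalized together, the second probe was 3.24 higher on the log2 scale in F1 than in F2, the first 1.02 higher and the dimmest 0.30 lower. The median absolute difference between generations was 0.42 over all genes measured on every array, and its 95th percentile was 1.52. The second probe of Gabra3 was 3.26 higher in F1 and its brightest probe 0.89 higher, and the second probe of Slc32a1 was 1.78 lower. Generation, slide and scan day cannot be told apart in these differences.

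**Figure D5:**
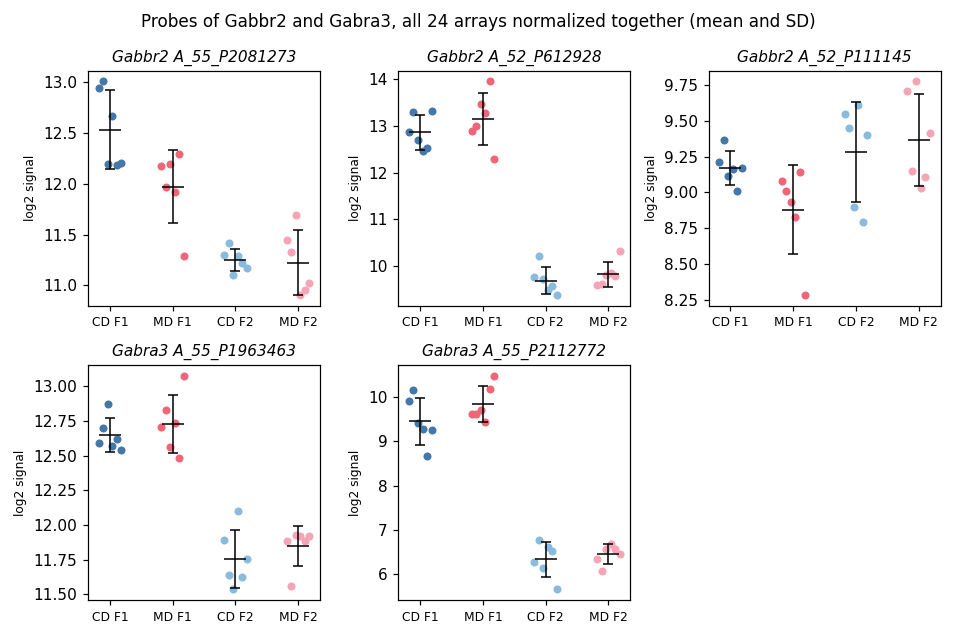
Panels show the 3 probes of Gabbr2 and the 2 probes of Gabra3, named by their array identifiers, with the group on the x axis and the log2 signal, all 24 arrays normalized together, on the y axis; each point is 1 array, and the dash and bars are the mean and SD of 6 arrays. The second probe of each gene lies more than 3 log2 units higher in F1 than in F2, while the dimmest Gabbr2 probe differs little.

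For Gabbr1 the brightest probe had a log2 fold change of -0.19 in F1 (SE 0.0899, n = 5 per group because a spot was left out on 1 array of each; limma, unadjusted p = 0.0577, FDR 0.359). The other probes of Gabbr1 gave -0.07 and -0.22 (limma, FDR 0.614 and 0.293), so that all 3 were on the same side in F1. In F2 they gave -0.01, -0.12 and -0.09 (limma, FDR 0.972 to 0.997).

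Gphn encodes gephyrin, the scaffold that holds GABAA and glycine receptors at synapses. It spanned 13.26 to 13.42 (median 13.32) in the CD F1 pools and 12.91 to 13.27 (median 13.14) in the MD F1 pools, with only a small overlap. In F2 it was 11.78 to 12.12 (median 11.91) with CD and 11.78 to 12.15 (median 11.89) with MD. On the log2 scale the change was -0.20 (SE 0.0654; limma, unadjusted p = 0.00956, FDR 0.243; exact permutation p = 0.00433) in F1 and -0.02 (-0.20 to 0.16; FDR 0.997) in F2. The difference between these was -0.18 (SE 0.105; limma interaction, unadjusted p = 0.0991, FDR 0.677). Within the F1 slides it was -0.27 to -0.14, and with the sex measure as a covariate it was -0.13 (limma, unadjusted p = 0.0810). Nlgn2, the adhesion protein of inhibitory synapses, gave -0.03 in both generations (95% confidence intervals -0.17 to 0.11 and -0.21 to 0.14).

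The effect of diet was also compared between generations for all genes. In the limma interaction, 0 of the 26 genes passed an FDR under 0.1, where 0.0127% of all probes did, and 2 (Gabra5 and Gabbr2) had an unadjusted p under 0.05, against 7.99% of the brightest probes of all genes and 8.29% of all probes. In both the difference, F1 minus F2, was below 0, as it was for 3.45% of all genes at that level, while it was above 0 for 4.54%. Gabbr2 counts here through the probe that was brightest over both generations. Its probe with the highest signal in F1 gave 0.29 in F1 and 0.14 in F2 (limma, FDR 0.614 and 0.946). The sign of the difference for Gabbr2 therefore depends on the probe.

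Of 35 other genes of the pathway, such as chloride transporters, glutamine and glutamate metabolism and receptor trafficking, all were well above background on every array and 0 passed an FDR under 0.1 in limma in F1, F2 or the interaction. In F1, 6 had an unadjusted p under 0.05, beside 13.4% of all genes, 2 higher and 4 lower in MD F1. Among these, Shisa7, an auxiliary GABAA receptor protein, had a log2 fold change of 0.31 (SE 0.0707; limma, FDR 0.194). Nsf, the ATPase of membrane fusion, had -0.36 (SE 0.0855; limma, FDR 0.196) and Trak1, an adaptor for transport along microtubules, -0.18 (SE 0.0648; FDR 0.275). Insyn1, an inhibitory synapse protein, had 0.23 (SE 0.0829; limma, FDR 0.279), and Gabarap, which binds gamma subunits, -0.19 (SE 0.0764; FDR 0.303). In F2, only Plcl1, which binds Gabarap, had an unadjusted p under 0.05 (log2 fold change 0.24, SE 0.103; limma, FDR 0.890), and in the interaction only Nsf (-0.38, SE 0.123; FDR 0.404). The medians of the 35 were -0.05 in F1 and -0.02 in F2.

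Marker lists were counted in the same fit. Of all genes, 8938 of 19751 were lower in MD F1 and 9538 of 19750 in MD F2. The shares of all genes at an unadjusted p under 0.05 were 13.4% in F1 and 5.65% in F2. Of the interneuron markers, 2 of 20 reached that level in F1, both lower in MD F1 (Erbb4 and Nos1; Erbb4 was well above background on 3 CD F1 arrays and on none of MD F1), and 0 in F2 in limma. Of 12 principal neuron markers, 10 were lower in MD F1 (median -0.12), 1 of them at an unadjusted p under 0.05 (Wfs1, log2 fold change -0.25; limma, FDR 0.214). Astrocyte markers were lower in MD F1 for all 10, 3 of them at an unadjusted p under 0.05 (Slc1a2, Gjb6 and Gfap), with a median of -0.10. Of 9 ependymal markers, 8 were higher in MD F1 and 7 lower in MD F2 at that level, with median log2 fold changes of 0.45 and -0.61, and the 10 choroid plexus markers were all higher in MD F1 (median 0.51) and all lower in MD F2 (median -2.29), with 0 of them at an unadjusted p under 0.05. Oligodendrocyte markers were lower in MD F1 for 8 of 10 (median -0.11), 2 of them at that level (Mobp and Cnp), and thalamus markers for 8 of 10 (median -0.23), with 3 at that level (Rora and Tcf7l2 lower, Rgs16 higher). Markers of meninges and vessels were lower in MD F2 for 8 of 10 (median -0.24), 2 of them at that level (Col1a1 and Col1a2), and their mean log2 signal was 9.95 to 10.42 in CD F2 and 9.73 to 10.14 in MD F2. No marker passed an FDR under 0.1 in limma in F1 or F2, and 1 ependymal marker did in the interaction. The part of these differences in the values of the GABA genes was not tested.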

How the data were processed

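The authors' files, one per array, hold the output of Agilent Feature Extraction (version 10.7.3.1 per the file headers, while the methods give another version) for Cy3-labelled cRNA. The deposited unit used was the processed signal, a linear intensity after background subtraction and detrending, without scaling between arrays. The authors' processed value table, linear intensity quantile-normalized per generation as its values show, was an alternative. No array column of other samples was present (0 not used). Intensities were log2-transformed, 1939 (F1) and 2097 (F2) spots marked non-uniform or as population outliers were left out, quantile normalization was run on each generation by itself (on all 24 arrays for the interaction), and repeated spots were then averaged per probe. The deposited values carry no log2 scale; that step was made here. Linear models were fitted over all probes with limma 3.58.1 in R 4.3.3, without covariates, with Benjamini-Hochberg adjustment and a threshold of 0.1 (FDR). For single genes an exact permutation test (two-sided, 924 splits, smallest p 0.00216) was added. The scripts were tested on simulated data. The number of arrays limits precision.

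The members and lists were chosen with earlier results of these data known. Values by range and median are given for genes with an unadjusted p under 0.05 in any comparison and for Gad1, Gad2 and Slc32a1, for pathway genes up to 5 with the smallest p, and for markers up to 3. Gabra2 in F2 and the probe and promoter descriptions were chosen after values were seen. Replicate numbers were checked as pairs and did not pair the arrays. Alternatives covered scaling, background, dim and irregular spots, slide and replicate blocks, a sex measure, the lh or rh code in F2 labels, the authors' table, averaged probes, another variance prior, a stricter FDR, a fit of all arrays and leaving out arrays.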

Additional observations from a re-analysis of the deposited data

Results flagged for a closer look

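Over the 26 genes and 4 groups, 104 sets of 6 arrays (5 for Gabbr1 in CD F1, MD F1 and CD F2) were searched. The search was for an array whose gap to its nearest neighbor was unusually wide for the range of its group. Such an array was found in 11 sets, where about 5.2 would arise by chance at 1 in 20. They came from 9 different arrays. In F1, Slc32a1 was 14.95 (log2 signal) in CD F1 replicate 3, with the other 5 arrays at 14.56 to 14.71. Gabra6 was 5.94 in CD F1 replicate 5. Gabrg3 was 7.45 and Gabbr2 was 11.48 in MD F1 replicate 6, against 8.01 to 8.29 and 12.14 to 12.53 on the other MD F1 arrays. In F2, Gabra3 was 11.36 in MD F2 replicate 2, Gabrd was 11.94 in MD F2 replicate 1 and Gabrp was 6.92 in MD F2 replicate 3, against 3.98 to 4.53 on the other MD F2 arrays. Gabrp was 5.57 in CD F2 replicate 6, against 4.12 to 4.65. Gabrr3 was 2.10 and Nlgn2 was 15.43 in CD F2 replicate 1, and Gabrq, not well above background on any array, was 2.55 in CD F2 replicate 4. MD F1 replicate 6, CD F2 replicate 6 and MD F2 replicate 3 also had the lowest correlations with the other arrays of their generation. The causes were not tested.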

How the results depend on the processing

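The count of GABA genes at an FDR under 0.1 in limma was 0 under every alternative in F2 and in the interaction and, in F1, under all but 1. Without normalization between arrays, 5 genes passed in F1 (Gabra2, Gabre, Gabbr1, Gabbr2 and Gphn), all with lower signal in MD F1. Gabre was well above background on 2 CD F1 arrays and 0 MD F1 arrays, so its direction is not read. In that setting 7952 of all probes passed, and the median of all probes was -0.28, against -0.33 for the 26 genes. Leaving out 1 array at a time kept the count at 0 in all 3 comparisons. The number at an unadjusted p under 0.05 moved in F1 from 4 to 2 with the sex measure as a covariate or with all 24 arrays in a single fit, to 9 without normalization between arrays, and to between 4 and 6 without 1 array. In F2 it moved from 2 to between 0 (no normalization, or without MD F2 replicate 2) and 5, and in the interaction from 2 to between 0 (without CD F2 replicate 4) and 3. Estimates of single genes changed sign in 42 of 618 values in F1, 36 of 669 in F2 and 61 of 930 in the interaction, none of them past the threshold. Same-numbered CD and MD arrays had correlations of their deviations between -0.44 and 0.44, so the numbers were not taken as pairs. In fits with a replicate block, the F1, F2 and interaction counts at an FDR under 0.1 were 0, and 4, 2 and 2 genes had an unadjusted p under 0.05. Agilent's mean signal was not in the files, so the normexp alternative used the median signal. Dim genes (Gabre, Gabrq, Gabra6 and Gabrr3 in F2) lie at the limit of detection.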
